A study of Mus musculus with 4 samples.

Results

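The genes described here are the 9 that make up the core of the cellular oxygen sensor: the HIF prolyl hydroxylases Egln1, Egln2 and Egln3, the asparaginyl hydroxylase Hif1an, the ubiquitin ligase subunit Vhl, the hypoxia-inducible alpha subunits Hif1a, Epas1 and Hif3a, and their partner Arnt. They were taken by symbol from tables of 22552 symbols, and all 9 were found. The set was chosen because Egln2 was much higher in the knockout, so its change between genotypes is given below as a description without a test. RNA was sequenced from haploid cells sorted by fluorescence after Hoechst staining from testes of male mice 23 days old, in 2 libraries from wild-type mice and 2 from Sox30 knockout mice. The titles call these samples round spermatids. Sox30 encodes a transcription factor of the SOX family, and no label tells what part of it was removed. The strain label reads DBA/C57/ICR and DBA/C59/ICR for wild-type libraries 1 and 2 and DBA/C58/ICR and DBA/C60/ICR for knockout libraries 1 and 2. The middle part runs from C57 to C60 in sample order, so whether the labels name different true backgrounds is not known. If they do, strain cannot be told apart from library. Whether a library came from 1 animal or from several pooled animals is not stated in the labels, so the p-values below cover only the spread among the libraries, and that spread may be technical.

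Oxygen sensing works by destruction of a transcription factor. When oxygen is present the EGLN enzymes, which use iron and 2-oxoglutarate, hydroxylate prolines of the HIF alpha subunits, VHL binds the hydroxylated protein, and the VHL ligase marks it for the proteasome. HIF1AN hydroxylates an asparagine of the same subunits and blocks their contact with coactivators. In low oxygen the alpha subunits escape, pair with ARNT and switch on genes for glycolysis, red cell production and vessel growth, and Egln1 and Egln3 are themselves among those target genes. This control acts on protein, which was not measured here.

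Egln2 is printed with its promoter because it had the highest mean transcript level of the set, and Egln3 because it had the lowest mean level in the same enzyme family. The sequences are RefSeq windows on build GRCm38.p6 of the 250 bases before an annotated start, written 5′ to 3′ on the strand of the gene. Capitals mark the letters ACGTG on either strand, a form of the core of the element bound by HIF. The other form, GCGTG, was not searched for or marked, and both Egln2 windows hold it. The first Egln2 window is chr7:27166803-27167052 on the minus strand, upstream of the gene. The second is chr7:27165729-27165978 on the minus strand, for a start 1074 bases further into the gene, in sequence that GENCODE M21 annotates as intron. The Egln3 window is chr12:54203875-54204124 on the minus strand, upstream of the gene.
Egln2, first start: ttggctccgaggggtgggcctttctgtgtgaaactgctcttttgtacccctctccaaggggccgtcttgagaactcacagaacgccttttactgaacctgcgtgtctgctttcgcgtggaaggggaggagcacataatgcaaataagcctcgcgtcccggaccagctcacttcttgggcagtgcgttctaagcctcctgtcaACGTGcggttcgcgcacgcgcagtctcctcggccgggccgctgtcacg
Egln2, second start: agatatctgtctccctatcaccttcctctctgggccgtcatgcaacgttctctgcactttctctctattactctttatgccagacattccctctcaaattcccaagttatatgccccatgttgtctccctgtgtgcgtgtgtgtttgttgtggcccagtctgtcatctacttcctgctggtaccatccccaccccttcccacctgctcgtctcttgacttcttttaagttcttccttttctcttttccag
Egln3: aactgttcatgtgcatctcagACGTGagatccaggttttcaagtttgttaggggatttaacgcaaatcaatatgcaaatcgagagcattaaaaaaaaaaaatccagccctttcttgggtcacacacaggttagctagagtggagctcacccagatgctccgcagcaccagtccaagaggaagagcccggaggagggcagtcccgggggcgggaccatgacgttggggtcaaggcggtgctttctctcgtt

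The first Egln2 window held 1 match to ACGTG, beginning 48 bases before the start, and the second held 0. The Egln3 window held 1, beginning 229 bases before the start. Across the set, 8 of 9 members had windows in the table, 9 windows in all. ACGTG was found in 4 of these 9 windows (Egln1, the first of Egln2, Egln3 and Hif1a), against 16.6% of all 32851 windows of the same length. The letters ACAAT, a core shared by SOX motifs, were in 0 of the 9 windows and in 27.7% of all windows, on either strand. The cyclic AMP response element TGACGTCA was in 1, that of Arnt, and in 1.55% of all windows. The deposited values are per gene, so the 2 Egln2 starts cannot be told apart in what follows.

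The libraries were checked first against their labels. Sox30 stood at 11.4 and 16.2 FPKM in wild-type cells and 1.46 and 3.16 FPKM in knockout cells, FPKM being fragment numbers scaled to transcript length and to the size of the library. Of 8 round spermatid markers, all tested, 5 fell in the knockout and 0 rose. Among all genes tested, the limma fit described below called 13.4% lower in the knockout and 1.95% higher. Of the 8, Catsper1 was below 0.001 FPKM in both knockout libraries. The summed level of the 8 was 3996 to 4538 FPKM in wild-type cells and 4147 and 3613 FPKM in knockout libraries 1 and 2. Spermatocyte markers summed to 440 to 463 FPKM in wild-type cells and 552 and 426 FPKM in knockout cells, with 0 of 6 tested called in either direction. Summed markers of several other cell types were lower in the knockout. The 7 Leydig markers summed to 37.3 to 60.3 FPKM in wild-type cells and to 0.0674 FPKM and near 0 in the knockout, where 6 of them, Insl3 and Cyp17a1 included, were below 0.001 FPKM in both libraries. The 5 erythroid markers went from between 148 and 248 FPKM to 8.51 and 0.178 FPKM, with Hbb-b1 and Alas2 below 0.001 FPKM in both knockout libraries. The 6 spermatogonial markers went from between 29.4 and 32.7 FPKM to 6.03 and 3.28 FPKM, with Kit, Stra8, Zbtb16 and Sohlh1 below 0.001 FPKM. The 7 Sertoli markers in the tables summed to 83.4 and 222 FPKM in wild-type libraries 1 and 2 and to 63.5 and 22.1 FPKM in knockout cells, nearly all of it Clu. Gata4 was below 0.001 FPKM in both knockout libraries, while Amh was below it in all 4 libraries, wild type included. The 4 peritubular myoid markers summed to 7.49 to 9.44 FPKM in wild-type cells and 1.34 and 2.23 FPKM in knockout cells, with Myh11 and Cnn1 below 0.001 FPKM in the knockout. The 5 macrophage and the 5 endothelial markers summed to at most 1.54 and 1.13 FPKM in any library. In libraries of sorted cells, fewer cells of a type and less RNA per cell cannot be told apart, and the part of these cells in the results below was not tested. Absolute depth is unknown. From the steps between low values, relative depth was 1.39, 1.24 and 1.17 in wild-type library 2 and knockout libraries 1 and 2 with wild-type library 1 as 1.

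Of the 3 HIF prolyl hydroxylases, Egln2 was the one with a transcript level above 1 FPKM in these 4 libraries, and it was far higher in the knockout. It stood at 21.7 and 52.8 FPKM in wild-type libraries 1 and 2 and at 286 and 201 FPKM in knockout libraries 1 and 2. Both knockout libraries lay above both wild-type libraries. The means were 37.3 ± 22.0 FPKM in wild-type cells and 243 ± 59.8 FPKM in the knockout (SD, n = 2), a ratio of 6.53. Taken pair by pair, the knockout level was between 3.80 and 13.2 times the wild-type level. On the log2(FPKM + 1) scale the difference was 2.78 (SE 0.48 from the limma fit of all genes). Egln2 ranked 2714 and 1632 by level in the wild type, and 421 and 525 in the knockout, among the 17790 symbols above 0 in at least 1 library. By log2 change it stood 9 from the top of the 9124 genes tested, those with a mean of at least 1 FPKM over the 4 libraries. Among the 1018 of them with a mean of at least 100 FPKM, a level chosen after the values were seen, it had the largest rise. These ranks describe the change for which the set was chosen.

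**Figure D1:**
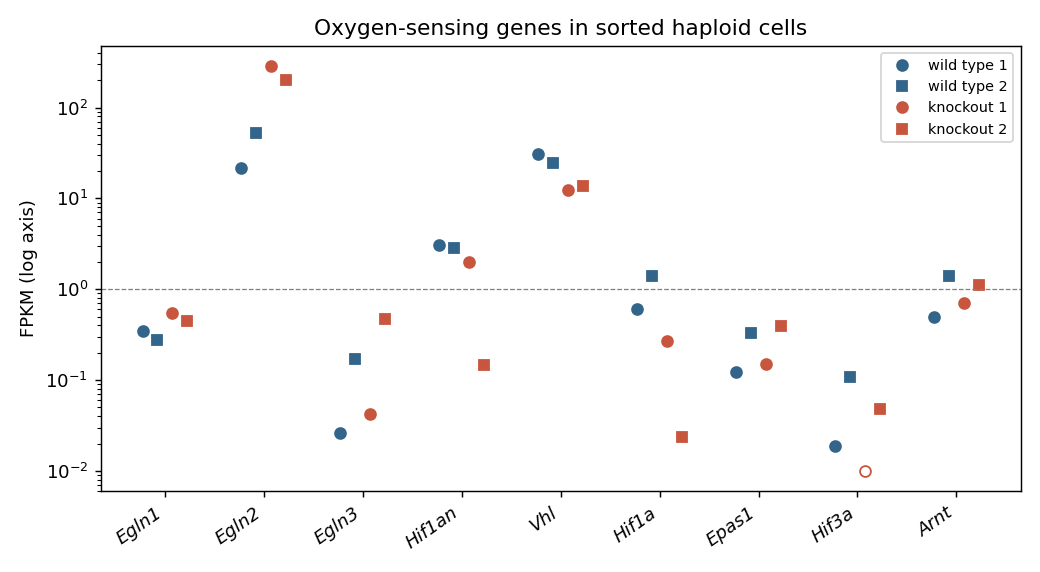
FPKM of the 9 oxygen-sensing genes on a log axis, 1 point per library (circles for library 1, squares for library 2, blue for wild type, red for knockout); the open circle is a value of 0 and the dashed line is 1 FPKM. Egln2 is at 21.7 and 52.8 FPKM in wild-type cells and 286 and 201 FPKM in knockout cells, Vhl lies lower in both knockout libraries, and most other members lie near or below 1 FPKM.

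The other prolyl hydroxylases were scarce. Egln1, the enzyme that sets basal HIF levels in most tissues, stood at 0.347 and 0.277 FPKM in wild-type cells and 0.541 and 0.445 FPKM in knockout cells. Both knockout values were above both wild-type values, but all 4 were below 1 FPKM and the gene was not tested. Egln3 stood at 0.0260 and 0.169 FPKM in wild-type cells and 0.0418 and 0.467 FPKM in knockout cells, with library 2 of each genotype high and the genotypes overlapping. Scaled by relative depth, the Egln3 values of wild-type libraries 1 and 2 and knockout libraries 1 and 2 were 1, 9, 2 and 21 times the lowest of them, each within 0.05 of a whole number. Egln2 thus made up 98.3% and 99.2% of the summed level of the family in the wild type and 99.8% and 99.5% in the knockout.

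The ligase subunit and the asparaginyl hydroxylase that act beside Egln2 stood lower in both knockout libraries, as did 40.0% of all symbols above 0. Vhl, which recognises hydroxylated HIF, stood at 30.9 and 24.3 FPKM in wild-type cells and 12.4 and 13.8 FPKM in knockout cells. The knockout libraries both lay below the wild-type libraries, by 1.76 to 2.49 times pair by pair. The log2 change was -1.01 (SE 0.32), which did not pass (adjusted p = 0.0945 by limma, unadjusted p = 0.0205). The log2 change of Vhl was -0.94 without knockout library 1 and -1.08 without knockout library 2. It was -0.84 without wild-type library 1 and -1.18 without wild-type library 2. In each of these fits the lone library of 1 genotype was taken to vary like the other genotype, so no call is drawn from them. Vhl did not pass in any setting that kept all 4 libraries. Egln2 and Vhl were at similar levels in the wild type, with Egln2 at 0.702 and 2.18 times the FPKM of Vhl in libraries 1 and 2. In the knockout it was at 23.0 and 14.5 times.

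Hif1an, the asparaginyl hydroxylase, stood at 3.10 and 2.86 FPKM in wild-type cells and 2.01 and 0.145 FPKM in knockout cells. Both knockout values were lower, but knockout library 2 was far below the rest. The log2 change was -1.10 (SE 0.52, adjusted p = 0.210 by limma). It was -1.80 without knockout library 1 and -0.40 without knockout library 2, so the size of the difference rested on knockout library 2. It also moved with the pseudocount, at -2.10 with 0.1 and -0.41 with 5.

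The HIF subunits themselves stood near or below 1 FPKM. Hif1a, the alpha subunit found in most cells, stood at 0.601 and 1.41 FPKM in wild-type cells and 0.269 and 0.0239 FPKM in knockout cells. Scaled by relative depth, these Hif1a values were 21.5, 70.1, 12.0 and 1 times the lowest of them. Both knockout libraries lay below the wild type, and the mean over all 4 libraries was 0.575 FPKM, below the minimum of 1 FPKM for testing. Epas1, the alpha subunit best known from endothelium and from cells that make erythropoietin, was at 0.123 and 0.329 FPKM against 0.149 and 0.391 FPKM. Hif3a was at 0.0189 and 0.108 FPKM against 0 and 0.0484 FPKM, which are 1, 8, 0 and 3 times the lowest step by the same measure as for Egln3. Arnt, the common partner, was at 0.490 and 1.41 FPKM against 0.700 and 1.11 FPKM, and its mean of 0.929 FPKM fell just short of the minimum for testing. For Epas1, Hif3a and Arnt the genotypes overlapped. With no filter on low values all 6 untested members could be fitted, and none passed, with Hif1a at a log2 change of -0.78 (adjusted p = 0.193 by limma, unadjusted p = 0.0473) and the other 5 at adjusted p between 0.439 and 1.0. Other annotated genes overlap 4 of the low members, on the opposite strand for Hif1a and Hif3a and on the same strand for Hif1a, Epas1 and Arnt. Strand counting is not stated, so these low values may include reads of those genes.

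Ordered by mean level, the wild type ran Egln2, Vhl, Hif1an, Hif1a, Arnt, Egln1, Epas1, Egln3 and Hif3a. Egln2 and Vhl overlapped in it, as did Hif1a and Arnt, Egln1 and Epas1, Epas1 and Egln3, and Egln3 and Hif3a, while Vhl was apart from Hif1an, Hif1an from Hif1a, and Arnt from Egln1. In the knockout the order was Egln2, Vhl, Hif1an, Arnt, Egln1, Epas1, Egln3, Hif1a and Hif3a. There Egln2 was apart from Vhl and Vhl from Hif1an. Arnt was apart from Egln1 and Egln1 from Epas1, and the other neighbours overlapped. The summed alpha subunits were at 0.743 and 1.85 FPKM in wild-type cells and 0.418 and 0.463 FPKM in knockout cells. Egln2 was therefore at 29.2 and 28.6 times the alpha subunits in the wild type and at 683 and 434 times in the knockout, as transcript levels per length.

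In all, 3 of 9 members reached the level for testing, namely Egln2, Vhl and Hif1an, and Egln2 and Vhl were above it in each library. Of the 9, 2 were higher in both knockout libraries than in both wild-type libraries, 3 were lower and 4 overlapped. Among all 17790 symbols above 0 the genotypes failed to overlap for 53.8%, with 13.8% higher and 40.0% lower in the knockout. The members' counts lie near those shares, and the set was chosen on this contrast. At a limma adjusted p under 0.05, 1.95% of the 9124 genes tested were higher in the knockout and 13.4% lower.

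The change in Egln2 was set against the transcript GC content, because changes across all genes followed it. The median log2 change was -0.68 in the lowest of 5 equal classes by GC content and 0.36 in the highest, in which Egln2 fell, at 62.2% GC. After each library was corrected for GC content the log2 change of Egln2 was 2.27, against 2.78 before. Vhl and Hif1an, at 49.9% and 51.5% GC, lay in classes with medians of -0.25 and near 0, and their changes after the correction were -0.78 and -0.97. The median over all genes tested was -0.23 as deposited, -0.05 after median-ratio scaling, 0.17 after quantile normalization and 0.01 after the GC correction. Relative to those medians Egln2 remained higher and Vhl and Hif1an lower in the knockout under each scaling.

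**Figure D2:**
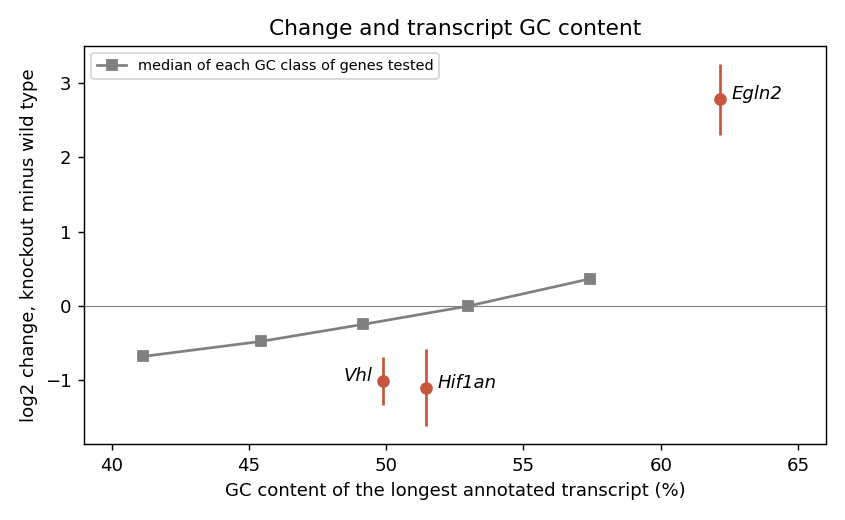
The log2 change (knockout minus wild type) against transcript GC content in percent, with grey squares for the median of each of 5 equal GC classes of the genes tested and red points for Egln2, Vhl and Hif1an (bars, SE). Egln2, at 62.2% GC and a change of 2.78, lies above the median of 0.36 of its class, and Vhl and Hif1an lie below theirs.

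**Figure D3:**
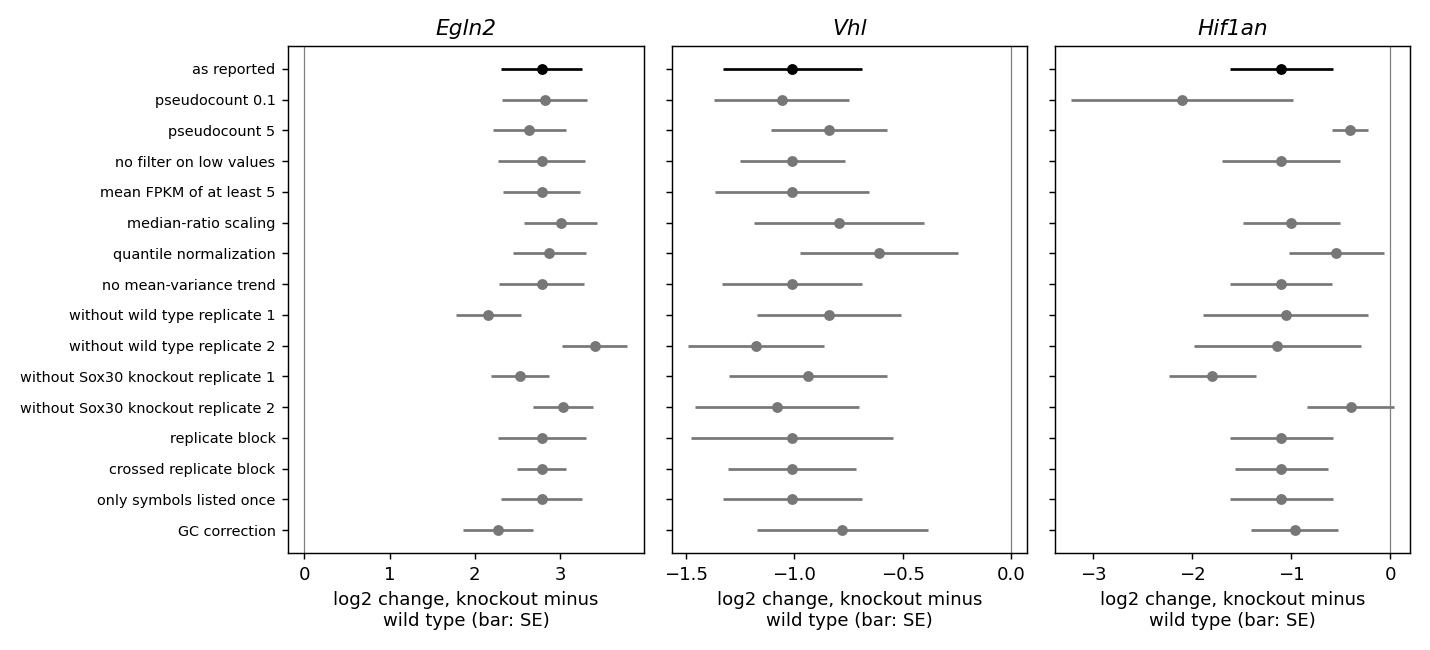
The log2 change (knockout minus wild type) of Egln2, Vhl and Hif1an on the x axis under each way of processing on the y axis (points, with SE bars; black, as reported). Egln2 ran from 2.16 without wild-type library 1 to 3.41 without wild-type library 2, and all values of Vhl and Hif1an were below 0.

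Of the genes beside Egln2 on chromosome 7, 1 passed the test. Rab4b, a small GTPase of endosomes and the next gene upstream, was at 83.7 and 77.0 FPKM in wild-type cells and 95.1 and 79.8 FPKM in knockout cells (log2 change 0.12, adjusted p = 0.811 by limma). Snrpa, a protein of the spliceosome, was at 76.5 and 59.9 against 81.1 and 28.2 FPKM (adjusted p = 0.560 by limma). Cyp2t4, the gene on the other side, whose end overlaps that of Egln2 by 11 bases on the opposite strand, was listed at 0 in all 4 libraries. The neighbour that passed was Adck4, also called Coq8b, which is needed to make coenzyme Q. It lies 6 places from Egln2, on the side of Rab4b, and rose from 2.93 and 6.84 FPKM to 22.9 and 23.6 FPKM, a log2 change of 2.13 (adjusted p = 0.0255 by limma). The call on Adck4 was lost at a pseudocount of 0.1 (adjusted p = 0.0519 by limma). It was also lost with no filter on low values (adjusted p = 0.0721 by limma). The log2 change of Adck4 was 1.63 without wild-type library 1 and 2.62 without wild-type library 2, fits from which no call is drawn. Of the 10 listed neighbours 6 were tested, 1 rose, 0 fell and 5 did not pass, with 2 higher and 0 lower at an unadjusted limma p under 0.05, beside 8.3% and 23.0% of all genes tested. Their median log2 change was 0.62, beside -0.23 over all genes tested. Shkbp1, which is part of that median, reached the minimum for testing only through the knockout. Its means were 0.599 FPKM in wild-type cells and 1.62 FPKM in knockout cells. Of the 10, 4 were higher and 0 lower in both knockout libraries than in both wild-type libraries, beside 13.8% and 40.0% of all symbols above 0. The 10 include Cyp2t4, which is at 0 and so outside those shares. On the side of Rab4b the listed neighbours reached 10 places, with no values for the gene at place 4. On the other side only Cyp2t4 was listed.

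**Figure D4:**
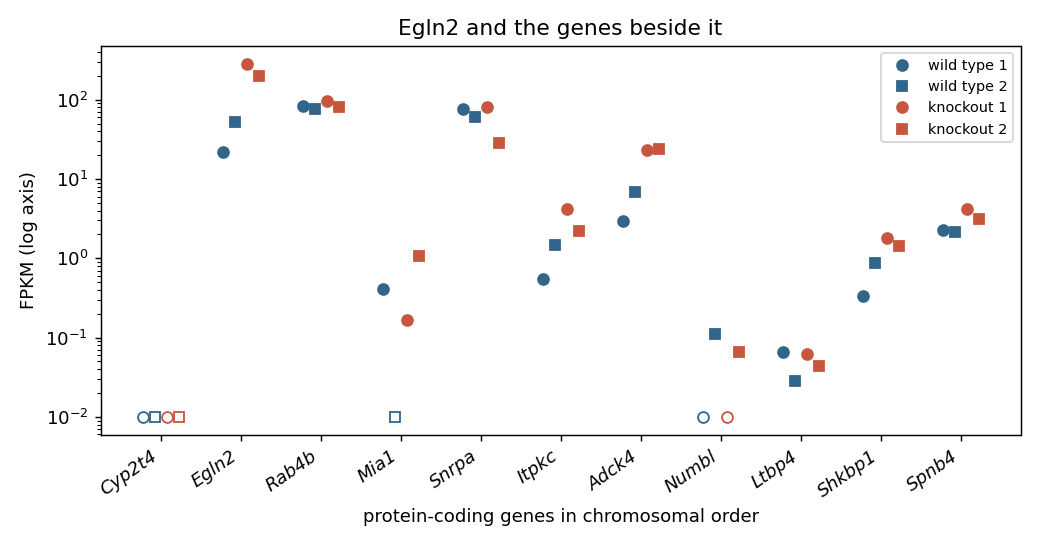
FPKM on a log axis for Egln2 and listed neighbours in their order along chromosome 7, 1 point per library (blue, wild type; red, knockout; circles, library 1; squares, library 2; open symbols, below 0.01 FPKM). Rab4b, beside Egln2, is at 77.0 to 95.1 FPKM in all libraries, and Adck4 is higher in both knockout libraries.

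Adck4 was also among the 5 tested genes whose profile over the 4 libraries lay nearest to that of Egln2, by Euclidean distance between centred log2(FPKM + 1) values. The nearest was Gnl1, a GTP-binding protein gene, at a distance of 0.626. It stood at 8.93 and 17.6 FPKM in wild-type cells and 73.2 and 51.9 FPKM in knockout cells. Amdhd2, an enzyme of amino sugar breakdown, followed at 0.693, with 44.3 and 57.0 against 327 and 265 FPKM. Adck4 was at 0.781 and Kank3, an ankyrin repeat gene, at 0.805. Their likeness rests on 4 libraries. By transcript GC content Egln2 was at percentile 98.6 of the genes tested, Gnl1, Amdhd2 and Kank3 were between percentiles 94.6 and 97.0, and Adck4 was at percentile 55.8.

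The wider pathway was described from 6 lists holding 121 genes besides the members, of which 70 were tested. Few moved: 2 rose and 3 fell, 2.86% and 4.29% of those tested, against 1.95% and 13.4% of all genes. The median log2 change over the 70 was -0.16, beside -0.23 over all genes tested. At an unadjusted limma p under 0.05 stood 16 of the 70, and over all genes 8.3% were higher and 23.0% lower at that level, the shares beside which the unadjusted count of each list stands. After quantile normalization the counts were 8 higher and 2 lower, and for all genes 608 higher and 1012 lower in place of 178 and 1221. Without wild-type library 1 the counts in the 6 lists were 0 and 1, without wild-type library 2 they were 0 and 0, without knockout library 1 they were 7 and 20, and without knockout library 2 they were 10 and 5.

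Among 9 partners of VHL and enzymes that load its ligase, 8 were tested, 1 rose, 0 fell and 7 did not pass, with a median of 0.33; at an unadjusted limma p under 0.05, 2 were higher and 1 lower. The member that rose was Nedd8, a small ubiquitin-like protein attached to cullins to activate them. It went from 204 and 179 FPKM to 376 and 456 FPKM, a log2 change of 1.11 (SE 0.27, adjusted p = 0.0465 by limma). This call passed in 7 of 15 other settings, those with 1 library left out included. Among others it failed with median-ratio scaling (adjusted p = 0.0684 by limma) and after the GC correction (adjusted p = 0.141 by limma). The log2 change of Nedd8 was 1.21 without wild-type library 1 and 1.02 without wild-type library 2. Tceb2, or elongin B, the adaptor that holds VHL in the complex, was the most abundant, at 737 and 588 FPKM in wild-type cells and 871 and 1431 FPKM in knockout cells (adjusted p = 0.189 by limma).

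Of 18 regulators of EGLN or HIF protein 15 were tested, 1 rose, 0 fell and 14 did not pass, with a median of -0.16; 1 was higher and 1 lower at an unadjusted limma p under 0.05. Fkbp8, a membrane-bound prolyl isomerase that binds EGLN1 and promotes its turnover, rose from 10.5 and 24.6 FPKM to 70.4 and 59.2 FPKM, a log2 change of 1.94 (SE 0.45, adjusted p = 0.0391 by limma). It did not pass at a pseudocount of 0.1 (adjusted p = 0.0675 by limma) or with no filter on low values (adjusted p = 0.102 by limma). The log2 change of Fkbp8 was 1.36 without wild-type library 1 and 2.52 without wild-type library 2, and no call is drawn from those fits. Siah2, a ubiquitin ligase subunit that targets EGLN proteins, was at 54.9 and 48.3 FPKM against 61.3 and 50.2 FPKM (adjusted p = 0.837 by limma). Gnb2l1, or Rack1, which binds HIF1A, was at 48.0 and 36.0 FPKM against 70.5 and 64.8 FPKM (adjusted p = 0.185 by limma).

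Textbook HIF target genes were mostly low or not called. Of 46 listed, 24 were tested, 0 rose, 2 fell and 22 did not pass, with a median of -0.44; at an unadjusted limma p under 0.05, 2 were higher and 4 lower. Pfkfb3, which makes the activator of phosphofructokinase, fell from 3.43 and 3.44 FPKM to 0.0460 FPKM and 0 (log2 change -2.12, SE 0.31, adjusted p = 0.00738 by limma). Without wild-type library 2 the log2 change of Pfkfb3 was -2.11. Its size depended on the pseudocount, from -4.87 at 0.1 to -0.75 at 5. Ero1l, an oxidase for disulfide bonds in the endoplasmic reticulum, fell from 2.15 and 2.94 FPKM to 0.498 and 0.259 FPKM (log2 change -1.36, SE 0.33, adjusted p = 0.0455 by limma). Its size too depended on the pseudocount, at -0.49 for 5 and -2.50 for 0.1, where it did not pass (adjusted p = 0.0638 by limma). That call was also lost after quantile normalization (-0.84, adjusted p = 0.140 by limma) and after the GC correction (-0.74, adjusted p = 0.226 by limma). The log2 change of Ero1l was -1.52 without wild-type library 1 and -1.20 without wild-type library 2. Pfkfb3 and Ero1l owed their place among the tested genes to wild-type libraries, since their knockout means, 0.0230 and 0.378 FPKM, were below the minimum. With no filter on low values Pfkfb3 still passed (adjusted p = 0.0420 by limma) and Ero1l did not (adjusted p = 0.104 by limma). Of the abundant targets, Ldha, a lactate dehydrogenase subunit, was at 492 and 539 FPKM against 926 and 483 FPKM (adjusted p = 0.530 by limma). Tpi1, a glycolytic isomerase, was at 69.9 and 109 FPKM against 165 and 146 FPKM (adjusted p = 0.154 by limma). In 16 of the 46 all libraries were below 1 FPKM, and 3 were below 0.001 FPKM in all. Over the 46, 19 were lower and 5 higher in both knockout libraries than in both wild-type libraries, beside 40.0% and 13.8% of all symbols above 0. The 46 include the members Egln1, which is among the 5 higher, and Egln3. They also include the 3 below 0.001 FPKM in all libraries, and some of the 46 stand in other lists too.

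**Figure D5:**
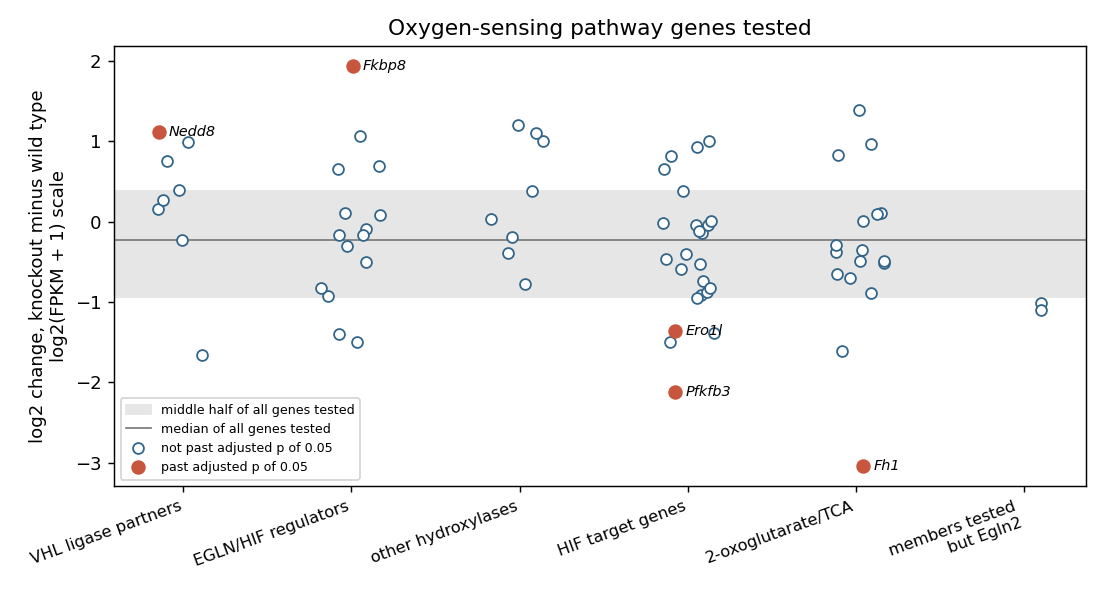
The log2 change (knockout minus wild type) on the y axis of the tested genes of 5 pathway lists and of Vhl and Hif1an, 1 point per gene (red, limma adjusted p under 0.05; open, not past it), with the grey band for the middle 50% of all genes tested and the line for their median. Of the pathway genes Nedd8 and Fkbp8 rose and Pfkfb3, Ero1l and Fh1 fell.

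Enzymes that make or consume 2-oxoglutarate, succinate and fumarate, the co-substrate and inhibitors of EGLN enzymes, numbered 21. Of the 17 tested 0 rose, 1 fell and 16 did not pass, with a median of -0.37. At an unadjusted limma p under 0.05, 1 was higher and 2 lower. The 1 higher was Idh2, which reached the minimum for testing only through the knockout. Its means were 0.560 FPKM in wild-type cells and 3.09 FPKM in knockout cells. Fh1, the fumarate hydratase, fell from 23.9 and 23.1 FPKM to 5.38 and 0.392 FPKM (log2 change -3.04, SE 0.72, adjusted p = 0.0426 by limma). The change was -3.01 without wild-type library 1 and -3.06 without wild-type library 2. It was -4.13 without knockout library 1 and -1.94 without knockout library 2. No call is drawn from these fits, where 1 genotype had a lone library. At a pseudocount of 5 it was -1.93, and at 0.1 it was -3.84 and did not pass (adjusted p = 0.116 by limma). Sucla2 and Suclg1, subunits of succinyl-CoA synthetase, were the most abundant. Sucla2 was at 445 and 440 FPKM against 350 and 282 FPKM (adjusted p = 0.266 by limma), and Suclg1 at 323 and 311 against 371 and 312 FPKM (adjusted p = 0.822 by limma).

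Other hydroxylases that use 2-oxoglutarate did not include a call. Of 18, 8 were tested, and 0 passed in either direction in the limma fit, with a median of 0.21 and with 3 higher and 0 lower at an unadjusted p under 0.05. Among the 3 was Jmjd4, which reached the minimum for testing only through the knockout. Its means were 0.388 FPKM in wild-type cells and 2.08 FPKM in knockout cells. Ogfod2 was at 16.0 and 22.2 FPKM in wild-type cells and 46.8 and 42.5 FPKM in knockout cells, so that its genotypes did not overlap (log2 change 1.20, adjusted p = 0.0599 by limma). Jmjd6, a lysyl hydroxylase of nuclear proteins, was at 14.3 and 18.5 against 27.2 and 10.2 FPKM (adjusted p = 0.969 by limma).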

How the data were processed

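RNA sequencing of 4 libraries (2 wild type, 2 Sox30 knockout, grouped by title) was used. The authors deposited FPKM per gene symbol, per the file headers. TopHat2 2.0.6, Cufflinks 2.0.2, Cuffdiff and build mm9 are named in the submitters' processing notes; their settings are not stated in the labels. Each table had 23021 entries for 22552 symbols, and the 259 symbols on more than 1 entry were summed. The 9124 genes with a mean of at least 1 FPKM were tested as log2(FPKM + 1), without rescaling, with genotype as the only term, in limma 3.58.1 under R 4.3.3 (mean-variance trend; 2 residual and 3.84 prior degrees of freedom), two-sided with Benjamini-Hochberg adjustment over those genes and a threshold of 0.05. A log2 change on this scale understates that of low genes. The members, lists and alternatives were chosen with earlier results of these data known. Named were the members, Sox30, in each list the genes past the threshold (at most 6) and the 2 of highest mean, and the 5 genes nearest to Egln2, 1 of which is not reported here. Jmjd4, Idh2, Shkbp1 and Npas1 were named after their values were seen, and other named genes are markers. GC content came from the longest GENCODE M21 transcript of each symbol (98.1% of symbols), and promoters and gene order from RefSeq on GRCm38.p6, a build other than the authors'. Library numbers were tried as a block; no label says that they pair libraries. Read counts were not used here, so no counting intervals are given.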

Additional observations from a re-analysis of the deposited data

How the results depend on the processing

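Egln2 stayed above the wild type in 15 of 15 other settings, between 2.16 and 3.41 on the log2 scale, and Vhl and Hif1an stayed below it. With 1 library left out, Vhl ranged from -1.18 to -0.84 and Hif1an from -1.80 to -0.40. With a pseudocount of 0.1 Hif1an was at -2.10. Hif1an gave no value at a mean of at least 5 FPKM, where it is not tested. Leaving out 1 library moved the genes higher over all tested between 0 and 984 and those lower between 0 and 3071. In the 6 pathway lists it moved them between 0 and 10 and between 0 and 20. Without wild-type library 2 the limma fit called 0 genes, with 1412 at an unadjusted p under 0.05, and without wild-type library 1 it called 0 higher, with 1517. All genes higher numbered 113 with a pseudocount of 0.1, 62 with no filter, 273 with median-ratio scaling, 608 with quantile normalization and 326 with the GC correction, and all genes lower numbered 787 at a mean of at least 5 FPKM. Pathway genes higher numbered 0 with a pseudocount of 0.1, 0 with no filter, 8 with quantile normalization and 1 with no mean-variance trend; pathway genes lower numbered 1 with a pseudocount of 0.1 and 1 at a mean of at least 5 FPKM. With the library number as a replicate block the genes higher were 82 over all and 1 in the pathway lists, with Egln2 at 2.78. Differences between libraries 1 and 2 of the 2 genotypes correlated at -0.20 over genes. Under the crossed pairing, chosen after seeing the data, 390 genes were higher and 1416 lower, with 6 pathway genes lower. The calls on single genes held in 7 of 15 settings for Nedd8, 11 of 15 for Fkbp8, Fh1 and Adck4, 13 of 14 for Pfkfb3 and 7 of 14 for Ero1l, and 0 of these reversed. Those tallies include the settings with 1 library left out, which moved the calls over all genes as given above. Where settings moved a count, the cause was not tested. The 6 members with a mean below 1 FPKM were fitted only with no filter on low values.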

Other observations

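The other bHLH-PAS factors, the family to which the HIF subunits belong and which includes the circadian clock proteins, were at low levels in these libraries. Of 15 listed genes 0 reached a mean of 1 FPKM, 11 were below 1 FPKM in all 4 libraries and 2 were below 0.001 FPKM in all. Over the mean of all 4 libraries the most abundant were Per1, a clock repressor, at 0.459 and 1.28 FPKM in wild-type cells and 0.827 and 0.833 FPKM in knockout cells, and Arntl, or Bmal1, a clock activator, at 0.669 and 0.903 FPKM against 1.67 and 0.0228 FPKM. The genotypes overlapped for both. In wild-type cells alone Npas1, a neuronal member of the family named here after its values were seen, was highest, at 1.41 and 1.11 FPKM, and it was at 0.193 FPKM and 0 in the knockout. Lower values in both knockout libraries were seen for 5 of the 15 and higher values for 0, beside 40.0% and 13.8% of all symbols above 0 in any library.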
